A study of Mus musculus with 43 samples.

Results

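The 10 genes described here encode ligands and receptors of the interleukin-1 (IL-1), tumour necrosis factor (TNF) and interleukin-6 (IL-6) families. They were chosen by name, as the rows of Il1a, Il1b, Il18, Tnf, Il1r1, Il1rap, Tnfrsf1a, Tnfrsf1b, Il6ra and Il6st among 55416 counted genes. The rule itself uses no measured value, although the genes were picked with earlier results of these data known. All 10 were counted in all 43 libraries. The libraries were RNA sequencing of microglia, astrocytes, oligodendrocyte precursor cells (OPCs) and oligodendrocytes that had been immunopanned, that is, caught on antibody-coated plates, from the cerebral cortex of 12 mice in 6 littermate pairs aged 3 months. Each pair held a Rag2-/- mouse, which cannot make mature T or B cells, and an immunocompetent control raised in the same environment.

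The Rag2-/- mice carried the Rag2 tm1.1Cgn allele, crossed onto C57BL/6J, in every cell of the body, so the loss was not limited to a cell type. The controls of pairs 1, 2, 3 and 5 were Rag2+/- and those of pairs 4 and 6 Rag2+/+. The mice of a pair had the same sex except in pair 6, which had a male control and a Rag2-/- female. Pairs 2 and 5 were female and pairs 1, 3 and 4 male. No mouse received a treatment. There were 6 control and 6 Rag2-/- libraries of microglia and of astrocytes, 6 and 5 of OPCs (none from the Rag2-/- mouse of pair 5) and 4 and 4 of oligodendrocytes (pairs 1, 3, 5 and 6). Microglia were taken with an antibody to CD45, which peripheral macrophages also carry. Each library is 1 mouse, and all libraries of a cell type were sequenced on 1 lane, so a cell type and its lane cannot be told apart.

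As background, IL-1 alpha and IL-1 beta bind the receptor IL1R1, which needs the accessory chain IL1RAP to signal through MYD88. IL-18, a relative of IL-1 beta, is cut to its active form by caspase-1 in the inflammasome. TNF is shed from the cell surface by the protease ADAM17 and binds TNFR1 (Tnfrsf1a), which carries a death domain, or TNFR2 (Tnfrsf1b), which does not. IL-6 binds IL6RA, and the pair recruits gp130 (Il6st), the signalling chain that receptors for LIF, OSM and CNTF also use. In the brain, microglia are the usual source of IL-1 and TNF, and both can act on astrocytes and on cells of the oligodendrocyte lineage. Together with C1q, IL-1 alpha and TNF from microglia are known to induce a reactive state in astrocytes.

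In the GRCm39 mouse genome, Il1a (ENSMUSG00000027399) lies at chr2:129140291-129152098 on the minus strand and Il1b (ENSMUSG00000027398) next to it at chr2:129206490-129213059, also minus. Tnf (ENSMUSG00000024401) lies at chr17:35418357-35420983, minus, and Il18 (ENSMUSG00000039217) at chr9:50466081-50493633, plus. The receptor genes are Il1r1 (ENSMUSG00000026072, chr1:40264174-40356417, plus), Il1rap (ENSMUSG00000022514, chr16:26400350-26548880, plus), Tnfrsf1a (ENSMUSG00000030341, chr6:125325566-125339632, plus), Tnfrsf1b (ENSMUSG00000028599, chr4:144938938-144973477, minus), Il6ra (ENSMUSG00000027947, chr3:89771366-89820719, minus) and Il6st (ENSMUSG00000021756, chr13:112600604-112646620, plus). Part of the exon sequence of some members is shared with a gene on the opposite strand: 13.7% for Il1a (Gm14023), 9.33% for Il1rap (Gm20319), 5.17% for Il6ra (Gm42809) and 3.65% for Il1b (Il1bos). Whether the counting used strand was not stated, so reads in those stretches cannot be assigned to either gene with certainty.

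The promoters of the 4 ligand genes are shown because the ligands split into 3 that were high in microglia and 1, Il18, that was highest in astrocytes. Each line is the 250 bases just upstream of the canonical GENCODE transcript start in GRCm39, read 5′ to 3′ on the strand of the gene, with capitals marking a TATAAA match. The windows are chr2:129152099-129152348 (minus) for Il1a, chr2:129213060-129213309 (minus) for Il1b, chr17:35420984-35421233 (minus) for Tnf and chr9:50476424-50476673 (plus) for Il18, whose canonical start lies inside the annotated gene.
Il1a: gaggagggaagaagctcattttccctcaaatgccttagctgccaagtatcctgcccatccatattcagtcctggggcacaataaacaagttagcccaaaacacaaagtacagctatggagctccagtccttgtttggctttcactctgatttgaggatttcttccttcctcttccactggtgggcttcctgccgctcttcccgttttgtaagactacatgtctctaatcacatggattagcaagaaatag
Il1b: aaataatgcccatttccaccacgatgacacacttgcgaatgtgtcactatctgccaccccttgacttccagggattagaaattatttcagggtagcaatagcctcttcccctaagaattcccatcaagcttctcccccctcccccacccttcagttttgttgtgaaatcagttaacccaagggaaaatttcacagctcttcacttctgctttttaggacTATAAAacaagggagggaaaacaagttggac
Tnf: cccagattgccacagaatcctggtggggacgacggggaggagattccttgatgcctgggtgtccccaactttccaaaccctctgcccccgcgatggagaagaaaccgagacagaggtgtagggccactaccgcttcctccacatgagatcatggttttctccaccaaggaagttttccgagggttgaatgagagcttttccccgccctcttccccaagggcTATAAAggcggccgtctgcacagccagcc
Il18: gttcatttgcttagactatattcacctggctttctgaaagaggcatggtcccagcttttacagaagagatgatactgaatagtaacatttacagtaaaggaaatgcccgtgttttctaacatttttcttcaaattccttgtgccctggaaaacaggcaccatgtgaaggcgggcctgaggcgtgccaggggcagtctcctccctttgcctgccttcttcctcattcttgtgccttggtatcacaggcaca
TATAAA, searched on the strand of the gene, was found in Il1b from 31 to 26 bases before the start and in Tnf from 29 to 24 bases before it. It was in 8.03% of 21770 promoter windows of the same length. It was not found in the windows of Il1a and Il18. No match to the NF-kappaB consensus (4.23% of windows), the AP-1 motif TGANTCA (6.17%) or the PU.1 motif GAGGAAGT (2.08%), searched on both strands, was found in any of the 4 windows. These matches are letters in a window and not measured binding.

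Libraries held 6499417 to 23118497 counts on genes (median 10447042). The summed level of the marker list of each cell type was highest in its own libraries in all 4 types. Mitochondrially encoded genes took 45.8% to 60.1% of the counts in oligodendrocytes, 22.4% to 45.1% in OPCs and astrocytes and 6.75% to 11.7% in microglia. Rag2 had 0 counts in every Rag2-/- library and in all but 3 control libraries, where it had 1, 1 and 4, so its level could not check the genotype labels. RNA of 8 microglia markers (among them Cx3cr1, P2ry12, Tmem119, Csf1r, C1qa, Trem2 and Aif1) was present in every library, none of the 8 being at 0 in any group. Its sum was 7310 to 8998 normalised CPM in microglia, 65.1 to 278.2 in astrocytes, 145.7 to 792.1 in OPCs and 270.4 to 1077 in oligodendrocytes. Both libraries of pair 3 had the highest sums in astrocytes, OPCs and oligodendrocytes. All levels are normalised CPM, a library's counts of a gene divided by all its gene counts, set to a common total and scaled by TMM factors over the 43 libraries, and a level per kilobase (kb) is divided by exon length.

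Il1a, which encodes IL-1 alpha, was a microglial RNA. Its level ranged from 930.0 to 1860 in the 12 microglia libraries (median 1161) and from 0.114 to 12.4 in the 12 astrocyte libraries (median 1.44). In the 11 OPC libraries it ranged from 11.7 to 91.2 (median 23.4). The 4 control oligodendrocyte libraries had 22.5, 102.1, 17.3 and 2.67 and the 4 Rag2-/- libraries 18.5, 79.4, 16.9 and 36.0. Every microglia library was thus above every other library, and the highest OPC and oligodendrocyte libraries were those of pair 3. Il1a was 641-fold higher in microglia than in astrocytes (log2 fold change 9.32, standard error (SE) 0.41, adjusted p = 5.15e-21), 50.6-fold higher than in OPCs (5.66, SE 0.35, adjusted p = 1.56e-16) and 60.2-fold higher than in oligodendrocytes (5.91, SE 0.42, adjusted p = 7.08e-15). Tests of fold changes are edgeR quasi-likelihood tests adjusted over all genes tested unless another tool is named, and here they compare libraries of the same 12 mice with the mouse as a block.

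Il1b, encoding IL-1 beta, was also far higher in microglia than in the other 3 types. Microglia libraries lay between 940.4 and 1612 (median 1271), astrocyte libraries between 0 and 11.7 (median 0.636) and OPC libraries between 9.28 and 70.0 (median 12.8). The oligodendrocyte libraries had 23.6, 92.5, 3.10 and 0 in controls and 14.9, 76.9, 8.60 and 13.8 in Rag2-/- mice. Again the microglia stood apart from all other libraries, by 10.02 on the log2 scale from astrocytes (SE 0.55, adjusted p = 3.34e-18), 6.28 from OPCs (SE 0.47, adjusted p = 2.71e-14) and 6.75 from oligodendrocytes (SE 0.57, adjusted p = 8.03e-13).

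Tnf was likewise highest in microglia, at 897.8 to 1547 (median 1202). Its level was 0 to 7.67 in astrocytes (median 0.410) and 7.69 to 66.4 in OPCs (median 21.4). In oligodendrocytes the controls had 10.6, 80.4, 7.95 and 0.627 and the Rag2-/- libraries 10.6, 87.3, 0.162 and 7.06. All microglia libraries were above all libraries of the other types. The log2 fold change of microglia over astrocytes was 10.70 (SE 0.57, adjusted p = 1.79e-18), over OPCs 6.24 (SE 0.47, adjusted p = 3.82e-14) and over oligodendrocytes 7.12 (SE 0.59, adjusted p = 4.13e-13).

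Il18 did not share this pattern. Its level was 55.1 to 92.7 in astrocytes (median 69.1), 14.2 to 30.0 in OPCs (median 21.7) and 8.97 to 17.1 in microglia (median 12.3). In oligodendrocytes it was 16.7, 10.6, 2.71 and 6.11 in controls and 6.52, 9.50, 14.6 and 22.5 in Rag2-/- mice. Every astrocyte library was above every library of the other 3 types. Il18 was lower in microglia than in astrocytes by 2.55 on the log2 scale (log2 fold change -2.55, SE 0.19, adjusted p = 1.98e-14), and astrocytes were 3.14-fold above OPCs (1.65, SE 0.19, adjusted p = 5.39e-09) and 6.72-fold above oligodendrocytes (2.75, SE 0.23, adjusted p = 3.98e-12). OPCs were 2.14-fold above oligodendrocytes (1.10, SE 0.23, adjusted p = 0.000197). Microglia had less Il18 than OPCs (-0.90, SE 0.19, adjusted p = 6.74e-05), a difference not called in control mice alone (-0.55, adjusted p = 0.0958). The difference between microglia and oligodendrocytes was 0.20 (95% interval -0.24 to 0.64, adjusted p = 0.419). OPC libraries carried 548.3 to 1941 CPM of 8 astrocyte markers, against 93.4 to 126.5 in microglia and 303.1 to 897.5 in oligodendrocytes. The part of that RNA in the Il18 levels outside astrocytes was not tested.

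**Figure D1:**
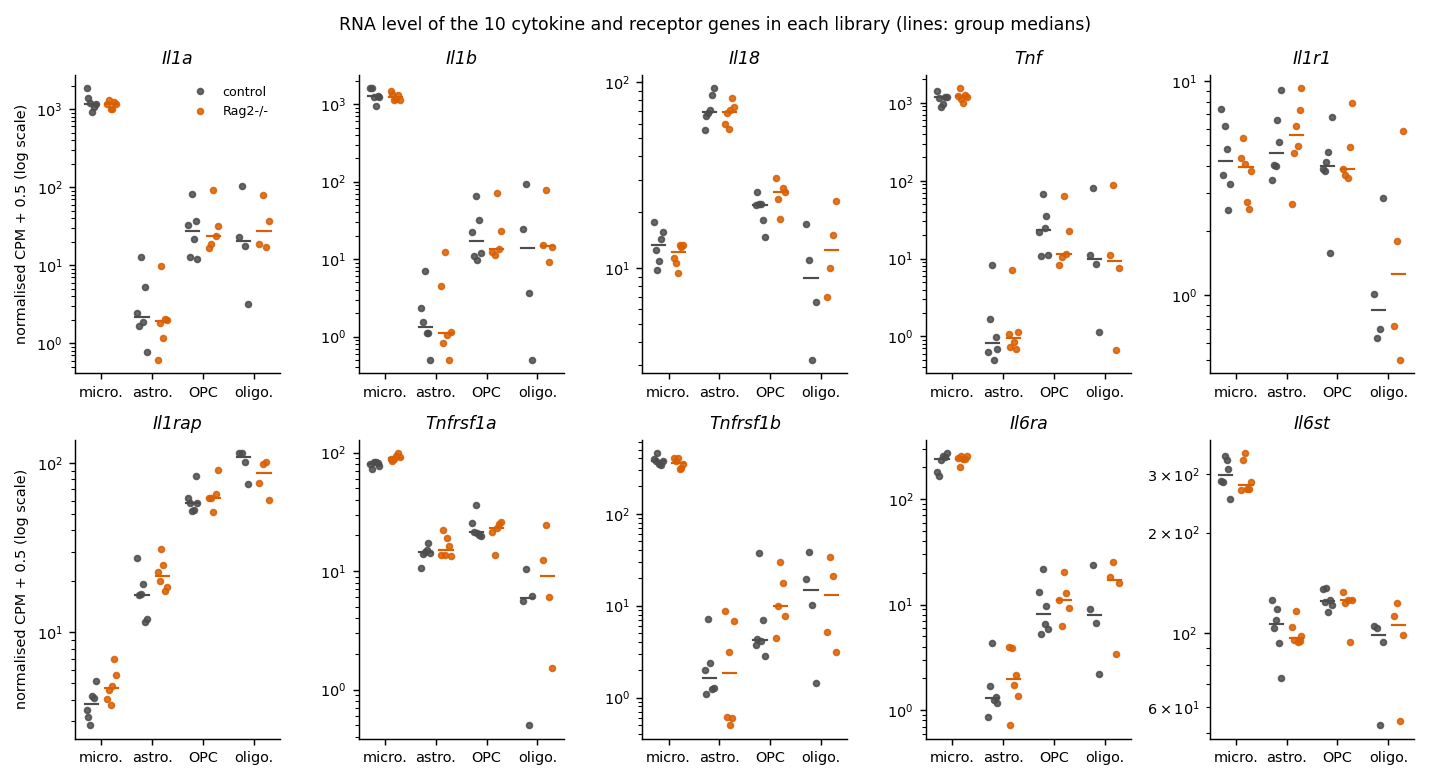
Normalised CPM plus 0.5 of each of the 10 genes (log axis) in each of the 43 libraries, by cell type (micro., microglia; astro., astrocytes; oligo., oligodendrocytes), with controls in grey, Rag2-/- in orange and a line at each group median. Il1a, Il1b, Tnf, Tnfrsf1b and Il6ra are far above the other cell types in microglia, Il18 is highest in astrocytes and Il1rap, on this scale but not as CPM of all gene counts, in oligodendrocytes, while control and Rag2-/- points of a cell type overlap in every panel but that of Tnfrsf1a in microglia.

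Among the ligand RNAs of a library, compared per kb of exon, the 3 microglial ligands and Il18 changed places between cell types. Tnf made up 46.2% ± 3.42 (SD, n = 12) of the summed ligand CPM per kb in microglia, Il1b 31.6% ± 2.44, Il1a 21.9% ± 2.01 and Il18 0.259% ± 0.0452. In astrocytes Il18 made up 90.5% ± 12.3 (n = 12), from 62.2% to 99.4%. OPCs were mixed, with Tnf at 33.8% ± 8.40, Il18 at 23.5% ± 12.0, Il1a at 21.7% ± 3.34 and Il1b at 20.96% ± 4.60 (n = 11). So were oligodendrocytes, where the shares were 29.6% ± 7.90 for Il1a, 27.1% ± 16.8 for Tnf, 21.8% ± 11.4 for Il1b and 21.6% ± 20.9 for Il18 (n = 8). Shares are relative and rise where the other ligands fall.

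Among OPC and among oligodendrocyte libraries, the 3 microglial ligands were highest in the pair 3 libraries, where microglia-marker RNA was also highest. In OPCs the pair 3 libraries, with marker sums of 790.4 (control) and 792.1 (Rag2-/-) against 373.7 or less in the others, had Il1a at 81.9 and 91.2 against 11.7 to 36.1. In the same 2 libraries Il1b was 65.1 and 70.0 against 9.28 to 31.6, and Tnf 66.4 and 63.1 against 7.69 to 34.5. The pair 3 oligodendrocyte libraries, with marker sums of 1077 and 976.7 against 626 or less, were also the highest for all 3 ligands. Below pair 3 the order differed. Pair 5 had higher sums (626.0 and 543.5) than pair 1 (401.5 and 446.3) but less of all 3 ligands, with Il1b at 3.10 and 8.60 against 23.6 and 14.9. Border macrophage markers were also highest in pair 3, at 164.3 and 138.6 in oligodendrocytes and 55.8 and 81.2 in OPCs. The part of either RNA in these levels was not tested. In bulk libraries fewer cells of a type and less RNA per cell cannot be told apart.

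**Figure D2:**
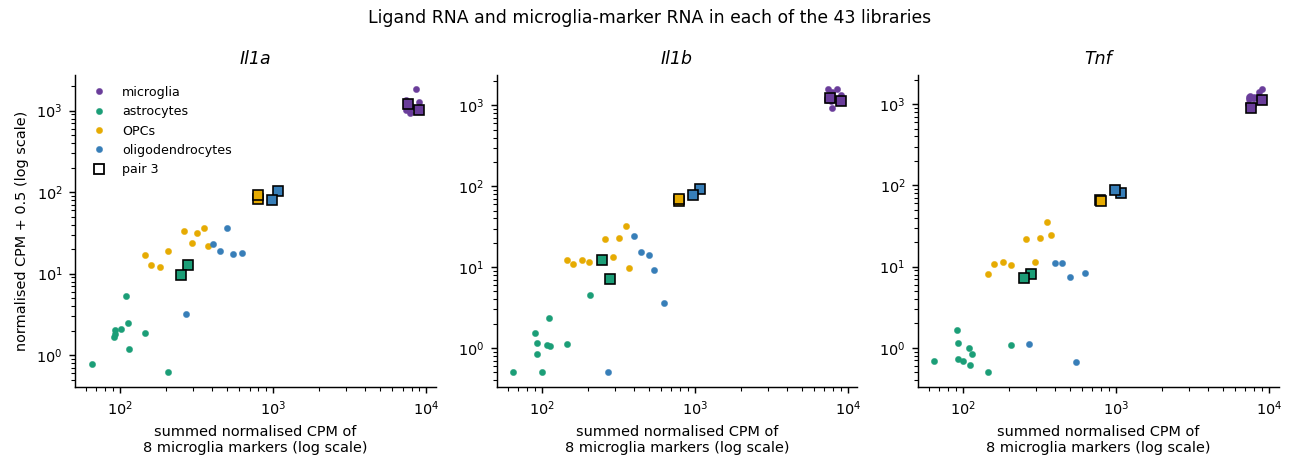
Normalised CPM plus 0.5 of Il1a, Il1b and Tnf (y, log axis) against the summed normalised CPM of 8 microglia markers (x, log axis) in each of the 43 libraries, coloured by cell type, with pair 3 as outlined squares. Outside microglia, the pair 3 OPC and oligodendrocyte libraries are at the top of both axes, at 63.1 to 102.1 CPM of each ligand.

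Set against their level in microglia, the 3 ligands were lower in the other cell types than the microglia markers were. The 8 markers were at 1.09% to 2.69% of their microglia level in astrocytes (median 1.64%), 3.81% to 5.48% in OPCs (median 4.45%) and 5.60% to 11.1% in oligodendrocytes (median 6.65%). Il1a was at 0.253% in astrocytes, 2.85% in OPCs and 3.07% in oligodendrocytes. The values of Il1b were 0.180%, 1.96% and 2.26% and those of Tnf 0.129%, 2.16% and 2.16%, all under the lowest marker. Without pair 3 the markers were at 0.939% to 2.49%, 2.67% to 4.15% and 3.94% to 9.08%, and the 3 ligands were again below them. Il1a was then at 0.121%, 1.85% and 1.55% in astrocytes, OPCs and oligodendrocytes, Il1b at 0.0737%, 1.22% and 0.816%, and Tnf at 0.0323%, 1.38% and 0.506%. With pair 3 left out, the log2 fold change of microglia over astrocytes was 9.86 for Il1a, 10.66 for Il1b and 11.70 for Tnf, each larger than with it. Il18, at 578.5%, 182.9% and 91.7% of its microglia level in astrocytes, OPCs and oligodendrocytes, lay far above the markers. The part of microglial RNA in the ligand levels of the other cell types was not tested.

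A further list that differed between cell types was that of 13 immediate-early and stress genes known to rise during tissue dissociation, whose summed level was 5661 to 9546 in microglia and 1328 to 3090 in the other libraries. Its part in the microglial ligand levels was not tested across cell types. Within the 12 microglia libraries none of the 4 ligands had a correlation with its sum that passed adjustment over the 10 relations computed. For Tnf, r was 0.00193 (permutation p = 0.997) and rho -0.0210. For Il1b, r was -0.515 (permutation p = 0.0901, adjusted 0.202) and rho -0.573 (adjusted p = 0.115). The largest rho was that of Il18, at 0.615 (permutation p = 0.037, adjusted p = 0.115), with r = 0.328. Monocyte and neutrophil markers summed to 9.24 to 92.4 and border macrophage markers to 332.3 to 813.9 in microglia, and their part in the ligand levels was not tested.

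By r, 1 of 6 ligand pairs varied together among microglia libraries past adjustment, and by rho none did. Il1a and Il1b had r = 0.810 (permutation p = 0.00054, adjusted p = 0.0054) and rho = 0.755 (permutation p = 0.00604, adjusted p = 0.0604) over the 12 libraries, with 0.696 once the 2 libraries farthest from the Il1a median were left out. Within genotypes r was 0.870 among 6 controls and 0.570 among 6 Rag2-/- libraries. Il1a and Tnf had r = 0.593 (permutation p = 0.0454, adjusted p = 0.202) and Il1b and Tnf r = 0.553 (permutation p = 0.061, adjusted p = 0.202), with rho of 0.566 and 0.636. Neither passed after adjustment. Every point here is a library with its own depth and scaling factor, which both genes of a relation share. The permutations moved all 12 libraries freely, although these came from 6 littermate pairs.

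Tnfrsf1b, the receptor TNFR2, was the receptor most restricted to microglia together with Il6ra. Its level was 310.5 to 453.5 in microglia (median 375.0), 0 to 8.24 in astrocytes (median 1.11) and 2.35 to 37.3 in OPCs (median 6.51). Oligodendrocyte libraries had 18.8, 38.1, 9.69 and 0.941 in controls and 4.67, 33.0, 20.6 and 2.59 in Rag2-/- mice. Microglia did not overlap with any other type, and were 192-fold above astrocytes (log2 fold change 7.59, SE 0.56, adjusted p = 1.63e-14), 47.3-fold above OPCs (5.57, SE 0.52, adjusted p = 8.37e-12) and 34.9-fold above oligodendrocytes (5.12, SE 0.60, adjusted p = 2.05e-09). Its levels outside microglia were 0.663%, 3.04% and 4.33% of the microglia level in astrocytes, OPCs and oligodendrocytes, under the lowest of the 8 markers in each type.

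Il6ra, which binds IL-6 itself, ranged from 166.4 to 270.5 in microglia (median 241.2), from 0.221 to 3.83 in astrocytes (median 1.02) and from 4.80 to 21.1 in OPCs (median 9.23). In oligodendrocytes it was 8.69, 23.4, 6.20 and 1.72 in controls and 17.7, 25.05, 2.92 and 15.7 in Rag2-/- mice. Microglia were higher by 7.50 on the log2 scale than astrocytes (SE 0.32, adjusted p = 2.76e-21), by 4.70 than OPCs (SE 0.28, adjusted p = 5.70e-17) and by 4.71 than oligodendrocytes (SE 0.33, adjusted p = 6.63e-15). At 4.57% of the microglia level in OPCs it lay within the range of the microglia markers, and at 0.663% in astrocytes and 5.46% in oligodendrocytes under it.

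Tnfrsf1a, the receptor TNFR1, was shared more widely. It ranged from 72.9 to 98.1 in microglia (median 84.4), from 13.3 to 35.6 in OPCs (median 20.9) and from 10.0 to 21.7 in astrocytes (median 13.9). Oligodendrocyte libraries had 5.11, 9.94, 0 and 5.64 in controls and 11.8, 23.9, 5.52 and 1.01 in Rag2-/- mice. The microglia were above all other libraries, but by 2.52 on the log2 scale over astrocytes (SE 0.28, adjusted p = 7.95e-10), 1.92 over OPCs (SE 0.29, adjusted p = 2.96e-07) and 3.63 over oligodendrocytes (SE 0.37, adjusted p = 8.47e-11). At 17.5% and 26.5% of the microglia level in astrocytes and OPCs, it was well above the marker range there, while its 9.26% in oligodendrocytes lay within it. The difference between astrocytes and OPCs was -0.59 (95% interval -1.17 to -0.02, adjusted p = 0.0869), and astrocytes were above oligodendrocytes by 1.12 (SE 0.35, adjusted p = 0.00767).

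Il6st, the gp130 chain, was the receptor with the smallest range among cell types. Microglia libraries had 250.9 to 345.0 (median 284.2), OPC libraries 93.4 to 135.6 (median 125.0) and astrocyte libraries 72.7 to 125.1 (median 100.1). In oligodendrocytes it was 104.6, 103.2, 52.3 and 93.1 in controls and 112.0, 122.2, 54.1 and 98.0 in Rag2-/- mice. Microglia stood above all others, 2.94-fold over astrocytes (log2 fold change 1.55, SE 0.095, adjusted p = 8.42e-17), 2.46-fold over OPCs (1.30, SE 0.098, adjusted p = 3.20e-14) and 3.30-fold over oligodendrocytes (1.72, SE 0.11, adjusted p = 1.18e-15). The other 3 types overlapped. Of these, OPCs were called above oligodendrocytes (0.42, SE 0.11, adjusted p = 0.00266) and above astrocytes (astrocytes lower, -0.26, SE 0.096, adjusted p = 0.0297). The second of these calls was lost in 11 alternatives, at adjusted p from 0.0561 to 0.313. Astrocytes and oligodendrocytes differed by 0.17 (95% interval -0.05 to 0.39, adjusted p = 0.211).

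Il1rap, the accessory chain of the IL-1 receptor, was lowest in microglia. Its level was 2.33 to 6.49 in microglia (median 3.65), 10.98 to 30.5 in astrocytes (median 18.4) and 50.7 to 90.9 in OPCs (median 61.6). Oligodendrocytes had 113.6, 113.5, 101.4 and 74.5 in controls and 75.8, 97.6, 101.6 and 60.2 in Rag2-/- mice. The microglia were below every other library and the astrocytes below every library of the oligodendrocyte lineage. Microglia were lower than astrocytes by 2.31 on the log2 scale (log2 fold change -2.31, SE 0.17, adjusted p = 1.76e-14), than OPCs by 4.05 (-4.05, SE 0.18, adjusted p = 1.71e-20) and than oligodendrocytes by 4.55 (-4.55, SE 0.19, adjusted p = 4.98e-21). Astrocytes were lower than OPCs (-1.74, SE 0.16, adjusted p = 5.53e-11) and oligodendrocytes (-2.24, SE 0.18, adjusted p = 1.40e-12).

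OPCs were called below oligodendrocytes for Il1rap (-0.50, SE 0.18, adjusted p = 0.0298). That call did not hold without pair 3 (-0.32, adjusted p = 0.216) or with no filter on low counts (adjusted p = 0.126). It was also lost without the control of pair 1 (adjusted p = 0.0731), the control of pair 3 (0.118) or the Rag2-/- mouse of pair 3 (0.0571). As CPM of all gene counts, with no TMM factor, the order of the means was reversed, with 80.5 in OPCs and 56.5 in oligodendrocytes. The astrocyte libraries carried 3250 to 6117 CPM of 7 oligodendrocyte markers, against 26157 to 36050 in oligodendrocyte libraries, and the part of that RNA in the astrocyte Il1rap level was not tested.

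Il1r1, the signalling IL-1 receptor, was low in all 4 types. It ranged from 2.00 to 6.92 in microglia (median 3.46), 2.17 to 8.76 in astrocytes (median 4.60) and 1.07 to 7.36 in OPCs (median 3.41), which overlapped. Oligodendrocyte libraries had 0.511, 0.131, 0.194 and 2.35 in controls and 0.217, 1.28, 0 and 5.33 in Rag2-/- mice, so that 6 of the 8 lay below the lowest microglia library. Oligodendrocytes were lower than astrocytes (astrocytes higher by 2.61, SE 0.49, adjusted p = 3.03e-05), OPCs (2.12, SE 0.48, adjusted p = 0.000645) and microglia (2.23, SE 0.49, adjusted p = 0.000148). Microglia differed from astrocytes by -0.38 (95% interval -1.13 to 0.37, adjusted p = 0.361) and from OPCs by 0.11 (-0.64 to 0.86, adjusted p = 0.798).

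**Figure D3:**
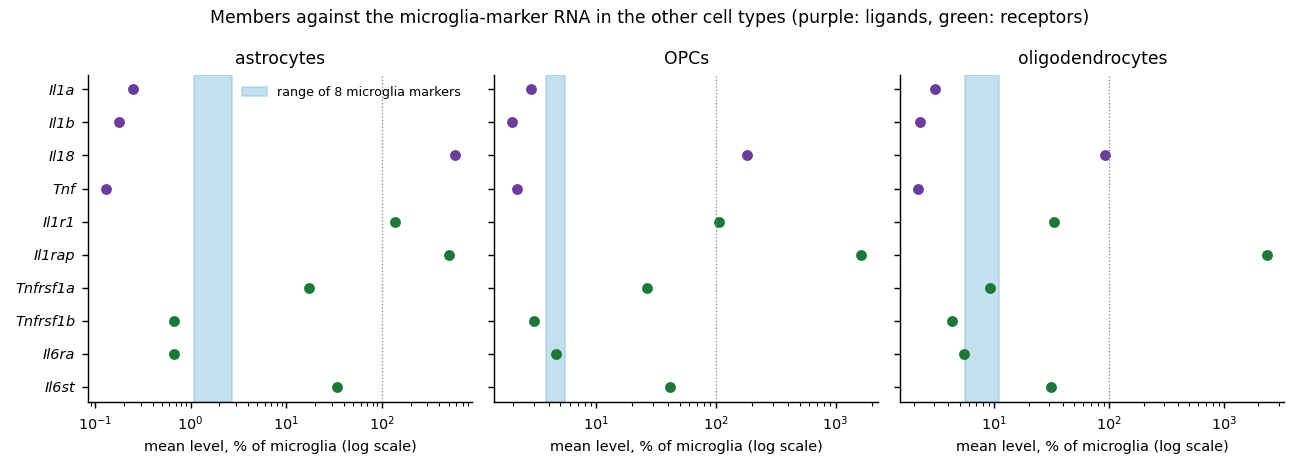
Mean level of each of the 10 genes in astrocytes, OPCs and oligodendrocytes as a percentage of its mean level in microglia (log axis), with the range of 8 microglia markers as a blue band and 100% as a dotted line. Il1a, Il1b, Tnf and Tnfrsf1b lie left of the band in all 3 panels, while Il18 and Il1rap lie far right of it.

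Compared per kb of exon, the receptor RNA of a library also differed in make-up. In microglia Tnfrsf1b made up 50.5% ± 3.67 (SD, n = 12) of the summed receptor CPM per kb, Tnfrsf1a 18.3% ± 1.98, Il6ra 17.7% ± 2.45 and Il6st 12.9% ± 1.16. In astrocytes Il6st made up 46.9% ± 5.09 and Tnfrsf1a 34.0% ± 6.93 (n = 12). OPCs had 34.8% ± 5.71 Il6st, 30.6% ± 3.77 Tnfrsf1a and 18.3% ± 4.21 Il1rap (n = 11), and oligodendrocytes 33.4% ± 10.1 Il1rap and 32.3% ± 9.71 Il6st (n = 8). The IL-1 receptor chains together were a small share in microglia, at 0.368% ± 0.143 for Il1r1 and 0.174% ± 0.0561 for Il1rap. In astrocytes they were at 5.49% ± 2.60 and 9.02% ± 2.32.

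**Figure D4:**
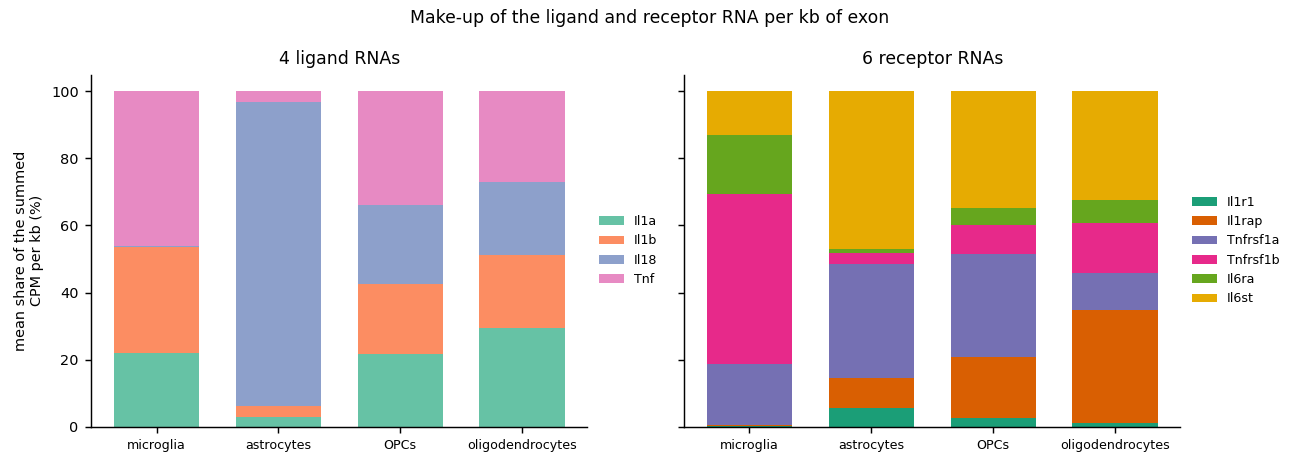
Mean share (%) of each gene in the summed normalised CPM per kb of exon of the 4 ligands (left) and of the 6 receptors (right), by cell type. Tnf, Il1b and Il1a fill the microglia bar and Il18 takes 90.5% of the astrocyte bar, while Tnfrsf1b takes 50.5% of the receptor bar in microglia and Il1rap 33.4% in oligodendrocytes.

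In counts, 7 of the 10 genes were called higher in microglia than in astrocytes and 2 lower, where 72% of all 19209 genes tested were called in either direction, 34.1% higher and 37.9% lower. Against OPCs 7 were higher and 2 lower, where 71.3% of genes were called, 31.6% higher and 39.8% lower, and against oligodendrocytes 8 were higher and 1 lower, where 67.9% were called, 34.4% higher and 33.5% lower. The number called in either direction was thus not far from the background. The median signed log2 fold change of the 10 was 5.01 against astrocytes, 3.31 against OPCs and 4.17 against oligodendrocytes, where the median of all genes, whose higher and lower values cancel, was -0.12, -0.18 and 0.09. In astrocytes 1 gene was higher and 7 lower than in OPCs (43.1% of genes called, 17.8% higher and 25.3% lower), and 3 were higher and 6 lower than in oligodendrocytes (48.6% called, 23.7% and 24.9%). In OPCs 4 were higher and 1 lower than in oligodendrocytes (38.5% called, 23.5% and 14.9%). Astrocytes were lower than OPCs in Il1a (-3.66), Il1b (-3.74), Tnf (-4.47), Tnfrsf1b (-2.02) and Il6ra (-2.80). OPC libraries also held more microglia-marker RNA than astrocyte libraries, and its part in these differences was not tested. OPCs and oligodendrocytes did not differ past the threshold in these 5 genes, with Tnf at 0.88 (SE 0.47, adjusted p = 0.138), and Tnf was called without pair 3 (1.53, adjusted p = 0.00395).

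Rag2 genotype had no effect that passed the test on any of the 10 genes in any of the 4 cell types. In microglia 0 of 10 were called, where 0.00667% of 15003 genes tested were. In astrocytes 0 of 8 tested were called (0.00679% of all genes), Il1b and Tnf having too few counts for the filter, in OPCs 0 of 10 (0.00592%), and in oligodendrocytes 0 of 9 (0% of all genes), Il1r1 being below the filter. The 3 filtered values were also not called when fitted without a filter, at 0.45 for Il1b (SE 0.56, adjusted p = 0.913) and -0.18 for Tnf (SE 0.63, adjusted p = 0.992) in astrocytes and 0.64 for Il1r1 in oligodendrocytes (SE 2.16, adjusted p = 0.978). At an unadjusted p under 0.05, 1 of the 37 values remained, Il1rap in astrocytes, where 2.9% of all genes in microglia, 2.87% in astrocytes, 4.02% in OPCs and 3.38% in oligodendrocytes had such a p. DESeq2 also called 0 of the 10 genes. Over all genes, however, DESeq2 called far more than edgeR in oligodendrocytes, with the numbers given below under processing. A test of whether the genotype effect differed among the 4 cell types called 0 of 10, where it called 0.0260% of 19209 genes, and its smallest unadjusted p over the 10 was 0.209, for Il18.

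For Il1a, Il1b and Tnf the genotype effect had its narrowest intervals in microglia. Il1a ranged from 930.0 to 1860 in controls (median 1177) and from 1005 to 1295 in Rag2-/- microglia (median 1159), a log2 fold change of -0.17 (95% interval -0.45 to 0.12). Il1b ranged from 940.4 to 1612 (median 1271) and from 1120 to 1479 (median 1226), at -0.09 (-0.35 to 0.16). Tnf ranged from 897.8 to 1410 (median 1183) and from 1006 to 1547 (median 1219.8), at 0.07 (-0.17 to 0.31). The groups overlapped for all 3 ligands, and no interval reached beyond 0.5 in size on the log2 scale. Among the microglial receptors, Tnfrsf1b was at -0.07 (-0.28 to 0.14), Il6ra at 0.10 (-0.15 to 0.35) and Il6st at -0.03 (-0.25 to 0.19), with groups that overlapped as well. The genes with low counts in microglia had wider intervals, -0.93 to 0.52 for Il1r1 and -0.25 to 0.97 for Il1rap.

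Tnfrsf1a in microglia was the 1 value of the 40 gene and cell type combinations in which control and Rag2-/- libraries did not overlap. Controls had 79.9, 72.9, 82.2, 83.5, 80.9 and 76.8 in pairs 1 to 6, and their Rag2-/- littermates 87.9, 85.3, 87.4, 93.2, 98.1 and 91.8. That the Rag2-/- mouse was the higher one in 6 of 6 pairs follows from the lack of overlap and adds nothing to it. The means were 79.3 ± 3.90 and 90.6 ± 4.69 (SD, n = 6 each), and the log2 fold change was 0.19 (SE 0.096, 95% interval -0.01 to 0.39), which was not called by edgeR (unadjusted p = 0.0576, adjusted p = 0.999). Groups did not overlap in 0.133% of the 15003 genes tested in microglia, that is, in 20 genes. In the other types Tnfrsf1a was at 0.17 in astrocytes (-0.22 to 0.57), -0.14 in OPCs (-0.55 to 0.28) and 2.18 in oligodendrocytes (-0.10 to 4.45, adjusted p = 0.998), where the libraries overlapped. Lymphocyte markers summed to 4.95 to 11.4 in control and 1.81 to 10.2 in Rag2-/- microglia libraries, Cd3e being at 0 in all 6 of the latter, and their part in the Tnfrsf1a level was not tested.

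Il1rap in astrocytes ranged from 10.98 to 27.2 in controls (median 16.2) and from 17.03 to 30.5 in Rag2-/- mice (median 20.9). The groups overlapped, and the log2 fold change of 0.45 (SE 0.20, 95% interval 0.04 to 0.87) had an unadjusted p of 0.0344 and an adjusted p of 0.9998, where 2.87% of all genes had an unadjusted p under 0.05. In microglia Il1rap was at 0.36, in OPCs at 0.07 (-0.22 to 0.37) and in oligodendrocytes at -0.27 (-0.86 to 0.31).

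For Il18 the narrower interval was that of astrocytes, where its level was highest. It was 55.1 to 92.7 there in controls and 55.6 to 82.3 in Rag2-/- mice, at -0.13 (-0.42 to 0.15), against -0.20 (-0.60 to 0.20) in microglia. The intervals of Il1a, Il1b and Tnf were wider in OPCs and oligodendrocytes than in microglia. In OPCs they were -0.85 to 1.14 for Il1a, -1.11 to 1.12 for Il1b and -1.40 to 0.80 for Tnf. In oligodendrocytes, with 4 libraries a group and with 2 of the 8 from pair 3, they were -1.46 to 2.17 for Il1a, -1.85 to 3.34 for Il1b and -2.50 to 2.62 for Tnf. The size of change in these genes that this number of mice could detect was not tested, and the intervals do not give it.

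**Figure D5:**
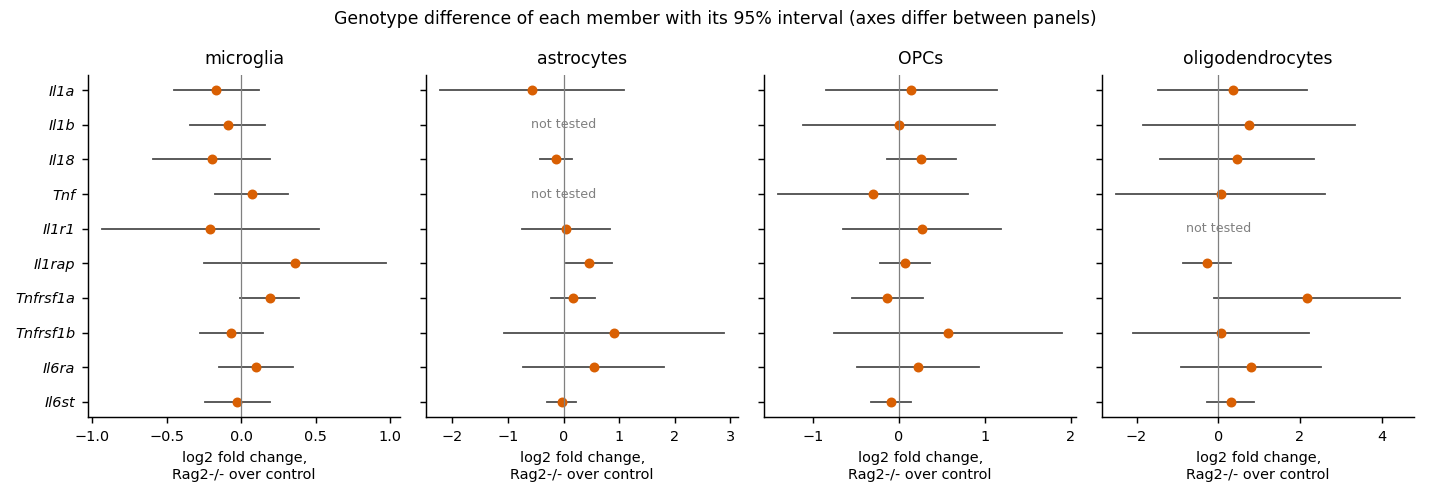
Log2 fold change of Rag2-/- over control (points) with its 95% interval (bars) for each of the 10 genes in each cell type, from the edgeR fit with sex as covariate. The panels have different x axes. The intervals of Il1a, Il1b and Tnf in microglia lie between -0.45 and 0.31, and those of oligodendrocytes reach 4.45.

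Sex had no effect past the threshold on the 10 genes either. Between female and male mice 0 of 10 were called in microglia (0.0467% of all genes called), 0 of 8 in astrocytes (0.0407%), 0 of 10 in OPCs (0.0296%) and 0 of 9 in oligodendrocytes (0.0362%). At an unadjusted p under 0.05 there were 0 in microglia (3.92% of all genes) and 1 in astrocytes (6.73% of genes), Il1rap, at -0.48 in females over males. There were 2 in OPCs (4.3% of genes), Il1rap at 0.36 and Il6ra at -0.79, and 2 in oligodendrocytes (8.23% of genes), Il6st at -0.66 and Tnfrsf1a at -3.31. DESeq2 called Tnfrsf1a in oligodendrocytes (-3.29, adjusted p = 0.0206). Without the filter on low counts edgeR called Il1b in astrocytes (-2.73, adjusted p = 0.00716) and Il1b (-2.54, adjusted p = 0.0117) and Tnf (-2.83, adjusted p = 0.00265) in oligodendrocytes. Without pair 3, a male pair, the same fit called 0, with Il1b at -1.11 and Tnf at -0.50 in oligodendrocytes (adjusted p = 0.998 for each). The pair 3 libraries of these types held the most microglia-marker RNA, whose part in these values was not tested. Over all genes, DESeq2 and the fit without a filter also called far more sex differences in these types than the main fit. Those numbers are given below under processing.

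Over the 43 libraries, the genes whose pattern was nearest to each member, were found by the root mean square distance of their log2 levels after each gene's own mean was taken out. Il1a was nearest to Ccl3 (0.61, r = 0.985), a chemokine, and Casp4 (0.67), an inflammatory caspase. Il1b was nearest to Ccl9 (0.80, r = 0.986), another chemokine, and to Tnf (0.84, r = 0.978). The genes nearest to Tnf were Il1b and Nlrp3 (0.95), the inflammasome sensor. Tnfrsf1b had Plek (0.83) and Spi1 (0.89), the gene of the myeloid factor PU.1, and Il6ra had Rnf19b (0.59) and Plek (0.65). Il18 was nearest to Abhd6 (0.42, r = 0.938), an enzyme that breaks down an endocannabinoid, and Eci2 (0.46), Il1rap to Agap1 (0.42), and Il6st to Gm7964 (0.21) and Arf4 (0.24). Tnfrsf1a was nearest to Plxnb2 (0.59) and Wsb1 (0.66). For Il1r1, whose counts were low, the nearest genes were farther off in correlation (Mcur1, r = 0.754). These are descriptions over libraries that share mice and lanes. They span all the cell types, so differences between cell types enter each r. Within the 12 microglia libraries alone, Il1b and Tnf had r = 0.553.

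Other genes of the 3 pathways, 58 in a list chosen with earlier results of these data known, were mostly higher in microglia. Of the 51 with enough counts, 41 were higher and 5 lower than in astrocytes, 42 and 5 against OPCs and 42 and 4 against oligodendrocytes. The filter let a gene in on its counts in any cell type. Il1r2, Il18rap and Il27ra had few counts outside microglia and passed mainly on those in microglia. Their direction was thus fixed by the filter, and their place in these counts is no separate evidence. Over all genes the shares higher and lower were 34.1% and 37.9%, 31.6% and 39.8%, and 34.4% and 33.5%. In the IL-1 list, Nlrp3 was at 337.9 CPM in microglia and 1.27 in astrocytes (log2 fold change 8.99), Casp1, which cuts pro-IL-1 beta and pro-IL-18, at 45.2 and 0.866, and Il1rn, the receptor antagonist, at 49.1 and 0.363 (8.86). The decoy receptor Il1r2 was at 6.33 in microglia and 0.102 in astrocytes. The chains of the IL-18 receptor were low, with Il18r1 at 0.579 in microglia and 0 in the other 3 types and Il18rap at 3.13, 0.222, 0.124 and 0 in microglia, astrocytes, OPCs and oligodendrocytes. The soluble IL-18 inhibitor Il18bp was at 10.5, 5.39, 6.32 and 8.64 in the same order. Il33, an alarmin of the IL-1 family, was the 1 gene of its list that was lower in microglia, at 1.28 against 189.2 in astrocytes (-7.31) and 386.4 in oligodendrocytes (-8.32).

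In the TNF list, of 19 genes tested, 16 were higher in microglia than in each of the other types and 0, 1 and 0 lower than in astrocytes, OPCs and oligodendrocytes, beside the same shares of all genes. Adam17, which sheds TNF, was at 181.2 in microglia, 30.7 in astrocytes, 38.7 in OPCs and 33.1 in oligodendrocytes. The IL-6 list was the most divided, with 9 higher and 4 lower in microglia than in astrocytes, of 15 tested. Osm was at 62.0 in microglia and at 0.440, 2.12 and 1.89 in astrocytes, OPCs and oligodendrocytes, while Il6 itself was at 1.83 in microglia and at 0.374, 0.382 and 0.128 in the others. The receptor chains that work with gp130 were divided. Cntfr was at 233.6 in astrocytes against 2.05 in microglia (-6.90) and Osmr at 24.9 against 1.27 (-4.48), while Il27ra was higher in microglia, at 1.57 against 0.0727 in astrocytes (4.90). Il11ra1 was at 6.49 in microglia and 10.4 in astrocytes (-0.66, adjusted p = 0.0886). Lifr was at 95.1 in astrocytes, 87.0 in OPCs, 68.4 in oligodendrocytes and 46.1 in microglia. Between Rag2-/- and control mice 0 of these pathway genes were called by edgeR in each cell type, of 51 tested in microglia, 40 in astrocytes, 44 in OPCs and 40 in oligodendrocytes, where 0.00667%, 0.00679%, 0.00592% and 0% of all genes were called. At an unadjusted p under 0.05 there were 3 (Lif, Birc2 and Rela), 1 (Casp8), 2 (Adam17 and Fadd) and 1 (Ikbkb) in the same order, where 2.9%, 2.87%, 4.02% and 3.38% of all genes had such a p.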

How the data were processed

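RNA of immunopanned cortical glia was sequenced as paired 50-base reads in 43 libraries after Ovation V2 amplification. The authors aligned reads with STAR 2.7.8a to GRCm39 and counted them per gene with HTSeq, and the deposited values are raw counts per Ensembl gene. Strand and overlap settings are not given in the sources used here. The 5 rows that name no gene, 33.5% to 52.0% of read pairs, were left out. Names, exon lengths and starts came from GENCODE M39 (GRCm39), which named 54742 of 55416 genes.

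Groups came from the labels. The members and lists were chosen with earlier results of these data known. Genotype and sex were tested within each cell type with edgeR 4.0.16 (quasi-likelihood, sex and genotype as terms, TMM, genes with at least 10 counts in enough libraries and 15 in all, Benjamini-Hochberg threshold 0.05). Cell types and the interaction were tested in 1 fit of all 43 libraries with the mouse as block. R 4.3.3, DESeq2 1.42.0, Python 3.11.15, pandas 2.3.3, scipy 1.17.1 and matplotlib 3.10.9 were used, and scripts were tested on simulated counts. Relations used log2(CPM + 0.5) and 100000 two-sided permutations. Genes nearest to a member were sought among those with a mean of at least 1 CPM. All 10 members are named, with the other pathway genes that stand for their list. A few genes that the lists or the search for nearest genes include are not reported here by name.

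The labels number mice by littermate pair. Deviations from group means had a mean correlation within pairs of 0.0865 in microglia, 0.135 in astrocytes, 0.0889 in OPCs and 0.111 in oligodendrocytes. Between pairs it was -0.0176, -0.0258, -0.0176 and -0.0359. Because the deviations of a group cancel out for each gene, a positive mean within pairs brings a slightly negative mean between pairs. The values between pairs are thus no separate evidence. The pairing itself comes from the labels and the breeding. No library was a copy of another (smallest chi-square per gene between libraries 8.18). Depth was 6499417 to 23118497 counts, and amplified reads without molecular identifiers are not independent molecules. Alternatives were DESeq2, its size factors, no filter, no mitochondrial genes, the pair as block, control subsets, each mouse left out in turn and, chosen after seeing the data, pair 3 left out.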

Additional observations from a re-analysis of the deposited data

Results flagged for a closer look

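In each of 80 groups (a gene in a cell type and genotype), the highest or lowest library was compared with the others by Dixon's test, which chance alone passes in about 1 of 20 groups. It marked 19 values, of which 16 were the highest of their group and came from 6 libraries of pair 3, so they are not independent of each other. In astrocytes these were Il1a at 9.25 CPM in the Rag2-/- group, Il1b at 6.57 in controls and 11.7 in Rag2-/-, Tnf at 7.67 and 6.72, Tnfrsf1b at 6.57 in controls and Il6ra at 3.83 in controls. In OPCs they were Il1a at 81.9 in controls and 91.2 in Rag2-/-, Il1b at 70.0 and Tnf at 63.1 in Rag2-/-, and Tnfrsf1a at 35.6 and Tnfrsf1b at 37.3 in controls. In oligodendrocytes they were Il1b at 76.9 in Rag2-/- and Tnf at 80.4 in controls and 87.3 in Rag2-/-. The same libraries held the most microglia-marker RNA of their cell type, 248.7 to 278.2 CPM in astrocytes, 790.4 to 792.1 in OPCs and 976.7 to 1077 in oligodendrocytes, and its part in these levels was not tested.

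The other 3 values came from other pairs. Il1rap was at 83.2 CPM in the control OPCs of pair 5 (the other controls 51.9 to 61.8). Il6ra was at 199.99 in the Rag2-/- microglia of pair 2, below the other 5 at 237.1 to 257.9. Il6st was at 93.4 in the Rag2-/- OPCs of pair 4, below the others at 122.4 to 132.2.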

How the results depend on the processing

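The genotype comparison called 0 of the 10 genes in each cell type under every alternative run, the littermate pair as replicate block included (0 in each of the 4 types). The 3 comparisons of microglia with another type called 9 genes each under DESeq2, with no mouse block and without pair 3. Without pair 3 they called 13244 (astrocytes), 13168 (OPCs) and 12421 (oligodendrocytes) of all 19492 genes. For DESeq2 and for no mouse block the number called over all genes is not given here, so no share stands beside the 9. In control mice alone, Il18 in microglia against OPCs was not called (edgeR, adjusted p = 0.0958). The block changed no call. Of 2413 fold changes under alternatives, 2388 kept their side of the threshold, 17 lost it and 8 gained it, and no called one changed sign. Between sexes, no filter called 1 gene in astrocytes and 2 in oligodendrocytes and DESeq2 1 in oligodendrocytes, against 0, and leaving out each mouse in turn gave 0 to 0 in both. The microglial relation of Il1a and Tnf fell to r = 0.189 on CPM of all gene counts and was 0.510 to 0.726 with each library left out. That of Il1b and Tnf was 0.587 after genotype and sex were taken out and 0.431 to 0.637 with each library left out, that of Il18 and Tnf 0.207 to 0.682 and that of Il1b and the dissociation list -0.566 to -0.377. The cause was not tested. Over all genes, genotype calls in microglia, astrocytes, OPCs and oligodendrocytes numbered 1, 1, 1 and 0, with no filter 9, 30, 90 and 14, and with DESeq2 3, 1, 5 and 206. Sex calls numbered 7, 6, 5 and 5, with no filter 25, 118, 72 and 99, and with DESeq2 11, 19, 13 and 422. The main fits tested 15003, 14725, 16882 and 13802 genes. More genes were tested with no filter, and the numbers tested there and with DESeq2 are not given here. These calls are therefore numbers of genes and not shares. Interaction calls numbered 5, with no filter 60 and without pair 3 21. DESeq2 size factors moved the median of all genes by 0.11 (log2) between microglia and OPCs. Low counts limit Il1b and Tnf in astrocytes and Il1r1 in oligodendrocytes, and 4 mice a group limit all oligodendrocyte values.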

Other observations

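Il1rl1, the receptor of IL-33, was at 4.32 CPM in microglia, where Il33 was at 1.28, and at 0.0707, 0.108 and 0.996 in astrocytes, OPCs and oligodendrocytes, where Il33 was at 189.2, 22.6 and 386.4. Lif, a ligand that signals through gp130, was at 8.38 CPM in microglia, 7.59 in astrocytes, 1.44 in OPCs and 0.490 in oligodendrocytes, while Cntf was at 0.168, 0.158, 0.260 and 0.374 in the same order. The scale changed the order of OPCs and oligodendrocytes for Il1a, Il1b, Tnf, Tnfrsf1b, Il6ra and Il1rap when CPM of all gene counts replaced TMM-scaled CPM.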
